A study of Mus musculus with 32 samples.

Results

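The glucocorticoid receptor gene Nr3c1 and 9 genes known as glucocorticoid targets or partners of the hormone were followed across hind leg muscles of mice with a knock-in mutation of Gne. The genes were chosen by name, Klf15, Klf9, Fkbp5, Tsc22d3, Zbtb16, Nfkbia, Sgk1, Hsd11b1 and Glul beside Nr3c1, and make up 10 of the 54838 genes listed. The choice was made with earlier results of these data known. Gne encodes the key enzyme of sialic acid synthesis. The knock-in mice were homozygous for GNE M743T, and the submitters divided them into a healthy and a sick phenotype; the wild-type mice were healthy. What marked a mouse as sick is not stated in the labels. All mice were males aged up to 3 months. Total RNA of the gastrocnemius, quadriceps and tibialis gave 32 libraries: 4 wild-type, 3 healthy and 3 sick knock-in libraries of the gastrocnemius, and 4, 4 and 3 of each of the other muscles. The sick libraries carry the replicate numbers 1, 2 and 3 in the gastrocnemius, 2, 3 and 4 in the quadriceps and 1, 2 and 4 in the tibialis.

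Glucocorticoids are steroid hormones of the adrenal cortex that enter cells and bind the glucocorticoid receptor, which is held in the cytoplasm by heat shock protein complexes until hormone arrives. The receptor then moves to the nucleus, binds short palindromic DNA elements and raises or lowers the transcription of nearby genes. In skeletal muscle the hormone is known for shifting amino acids from protein to energy metabolism and for muscle wasting under prolonged exposure. Several of its targets restrain the response itself or restrain inflammation.

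Levels are given as CPM, here counts divided by the library's total over the genes kept for tests times its trimmed-mean scaling factor. These factors ran from 0.879 in sick tibialis replicate 4 to 1.247 in sick gastrocnemius replicate 2. The CPM of different libraries therefore do not add up to the same total. Total counts ran from 7685164 to 42588233 per library, and all 42 pairs of replicates differed by more than sampling noise. Markers of muscle fibres were abundant in every library, at a summed level of 90173 to 186783 CPM, and lymphocyte markers stayed at or below 2.12 CPM. The healthy knock-in libraries with replicate number 4, from the quadriceps and the tibialis, stood apart from the other healthy libraries in most of the 10 genes, so comparisons with the healthy group are also given without them where their absence changes a call or a direction. Which libraries of the 3 muscles belong to 1 mouse is not labelled, nor are the replicates described as separate mice, so the p-values speak of the spread among libraries, part of which may be technical. In whole muscle, fewer cells of a type and less RNA per cell cannot be told apart.

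Against wild-type muscle, sick knock-in muscle held more RNA of some of these targets, and the receptor gene itself passed in the tibialis alone and with a smaller estimate than the targets called there. In all, 5 of the 10 genes were higher in the gastrocnemius at an adjusted p under 0.05 (limma-voom, Benjamini-Hochberg over all genes tested), 3 in the quadriceps and 6 in the tibialis, and 0 were lower. Klf15, a transcription factor of amino acid breakdown, and Nfkbia, the inhibitor of the inflammatory factor NF-kappa-B, passed in all 3 muscles. Same-numbered sick libraries of different muscles deviated from their group means together (r 0.286 to 0.564), so the 3 muscles may not be independent observations. Glul, which encodes glutamine synthetase, Fkbp5, a brake on the receptor, and Klf9, a transcription factor, passed in the gastrocnemius and the tibialis. Tsc22d3 passed in the quadriceps, and Zbtb16, Sgk1 and Hsd11b1 in none. Changes are given as log2 fold changes with their standard error (±) unless said otherwise.

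The same test called 14.7% of all 14155 genes tested in the gastrocnemius, 18% of 13799 in the quadriceps and 18.1% of 14520 in the tibialis, and called higher 8.22%, 10.5% and 8.44%. The median log2 change of the 10 genes was 1.24, 0.92 and 1.15 in the same order, beside -0.03, 0.00 and -0.05 over all genes tested. Every sick library exceeded every wild-type library for 7, 7 and 6 of the 10 genes; ranges lay apart in either direction for 27.2%, 30.2% and 30.8% of all genes tested. Against healthy libraries this held for 7, 3 and 4 of the 10 genes, with ranges apart for 37.5%, 24% and 28.9% of all genes. Sick replicate 2 had the highest level within its group for 6, 8 and 8 of the 10 genes in the gastrocnemius, quadriceps and tibialis. The share of all genes highest in that replicate was not computed, so this is not shown to be particular to the 10 genes. Without sick replicate 2, 0 of the 10 genes and 83 of all genes passed in the quadriceps. In the tibialis 3 of the 10 (Klf9 and Nfkbia higher, Hsd11b1 lower) and 957 of all genes then passed, and in the gastrocnemius 4 of the 10 and 561 of all genes. The count of the 10 genes also moved by more than 1.5 times without gastrocnemius sick replicate 3 (to 3), quadriceps wild-type replicate 1 or sick replicate 3 (to 1 each) or healthy replicate 4 (to 5), and tibialis wild-type replicate 1 (to 3) or 2 (to 2).

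**Figure D1:**
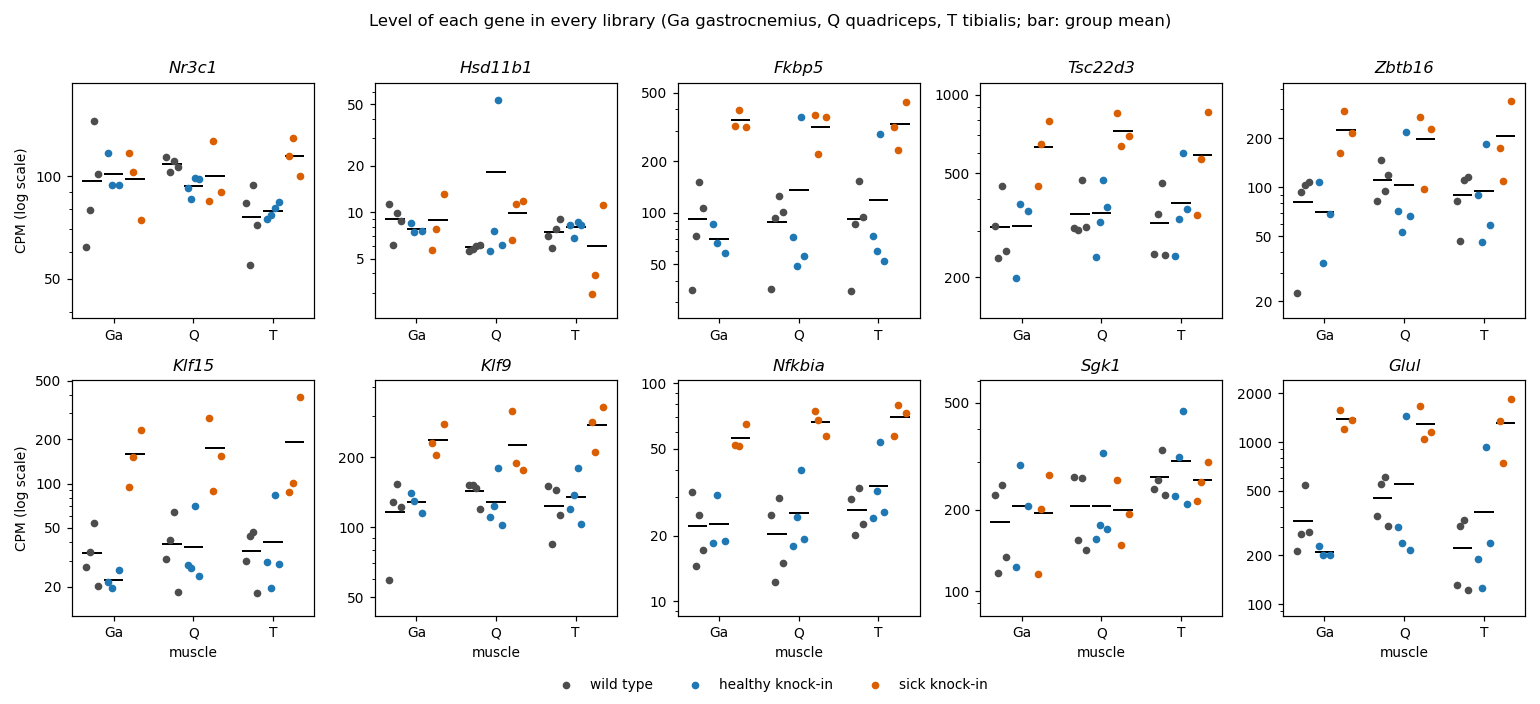
CPM of each of the 10 genes in every library (points, log scale) by muscle (Ga gastrocnemius, Q quadriceps, T tibialis) and state (colour), with a bar at each group mean. Klf15, Nfkbia, Fkbp5 and Glul in sick libraries lie above all wild-type libraries of the same muscle, and single healthy points reach the sick range for Fkbp5 and Glul in the quadriceps and tibialis.

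**Figure D2:**
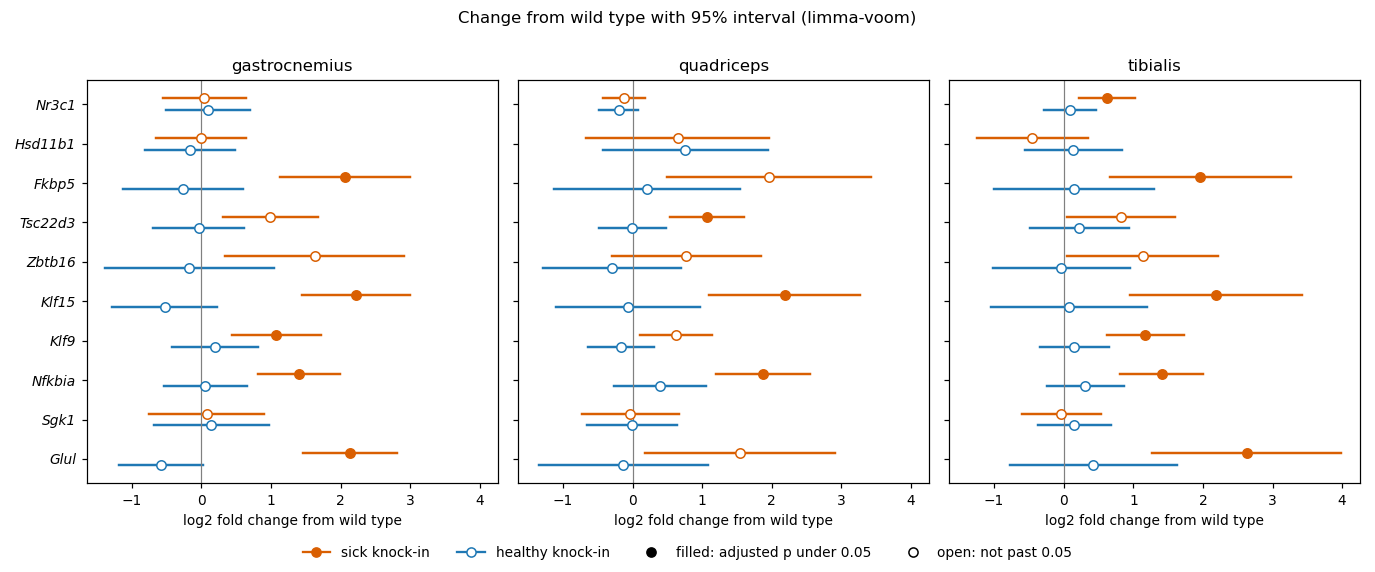
Change of each gene from wild type as a log2 fold change (point) with its 95% interval (line), for sick and healthy knock-in muscle; filled points passed an adjusted p of 0.05. The sick estimates of Klf15 are near 2.2 in each muscle, those of Sgk1 are near 0, and no healthy estimate passed.

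Nr3c1 encodes the glucocorticoid receptor itself, a hormone-activated transcription factor. Nr3c1 CPM in the gastrocnemius were 61.8, 79.4, 102 and 145 in wild-type, 94.1, 94.1 and 117 in healthy and 74.5, 103 and 117 in sick libraries. Nr3c1 CPM in the quadriceps were 103, 106, 110.5 and 114 in wild-type, 85.7, 92.5, 98.3 and 98.6 in healthy and 84.3, 89.8 and 127 in sick libraries. Nr3c1 CPM in the tibialis were 54.7, 71.7, 83.3 and 94.3 in wild-type, 74.9, 76.7, 80.4 and 83.8 in healthy and 100.1, 115 and 129.6 in sick libraries. Sick and wild-type ranges overlapped in the gastrocnemius and quadriceps and lay apart in the tibialis, where the wild-type libraries were the lowest of any group on average (76.00 ± 16.9 CPM, SD, n = 4) and the sick ones the highest (115 ± 14.8, SD, n = 3). The log2 difference between sick and wild type was 0.05 ± 0.27 in the gastrocnemius, with a 95% interval of -0.55 to 0.65, and -0.12 ± 0.14 in the quadriceps, with an interval of -0.42 to 0.18; neither passed (adjusted p = 0.925 and 0.569). Without sick replicate 4 the quadriceps difference was -0.31 (adjusted p = 0.0542). In the tibialis Nr3c1 rose by 0.63 ± 0.19, 1.54-fold (95% interval 1.17 to 2.04), with an adjusted p of 0.0380. That call was lost without any single one of wild type replicates 1, 2 and 3 and sick replicates 1, 2 and 4 (adjusted p = 0.0530 to 0.0895), with total counts as the only scaling (adjusted p = 0.0838) and in a fit of the 2 groups alone (adjusted p = 0.0968). The 4 wild-type tibialis libraries also held kidney tubule markers, at a summed 50.6 to 68.4 CPM against at most 1.44 CPM in the 7 knock-in tibialis libraries and 20.6 CPM in healthy gastrocnemius replicate 2, and the part of this in the tibialis differences was not tested.

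Hsd11b1 encodes the enzyme that regenerates active glucocorticoid from its inert form inside cells, and it was the least abundant of the 10 genes, at 1.39 to 2.11 CPM per kilobase of exon in the wild-type groups. Hsd11b1 CPM in the quadriceps were 5.62, 5.77, 6.05 and 6.15 in wild-type, 5.63, 6.16, 7.55 and 53.01 in healthy and 6.59, 11.3 and 11.7 in sick libraries. The sick quadriceps libraries all lay above the wild-type ones, which were tightly grouped, but the difference of 0.65 ± 0.60 did not pass (adjusted p = 0.461). Hsd11b1 CPM in the tibialis were 5.87, 7.01, 7.78 and 9.03 in wild-type, 6.83, 8.23, 8.24 and 8.62 in healthy and 2.94, 3.90 and 11.2 in sick libraries. Of the sick tibialis libraries, replicate 2 stood at 11.2 CPM, above all wild-type libraries, and the other 2 stood below them. The log2 difference was -0.45 ± 0.36 with all libraries (adjusted p = 0.393) and -1.08 without that library (adjusted p = 0.0313). With a quality weight per library it was -1.12 and passed (adjusted p = 0.0127), and without sick replicate 1 it was -0.08 (adjusted p = 0.887). Gastrocnemius values ran from 6.08 to 11.3 CPM in wild type and from 5.72 to 13.1 in sick muscle, with a difference of -0.00 ± 0.29 (adjusted p = 0.998). The single high value, 53.01 CPM, belonged to healthy quadriceps replicate 4, a library in which adipocyte markers summed to 3257 CPM against 214 to 366 CPM in the other healthy quadriceps libraries; the part of this in the Hsd11b1 level was not tested. Hsd11b1 overlaps Lamb3 on the opposite strand, which had 1339 counts in all against 4919 for Hsd11b1, and the counting is not stated to use strand.

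Fkbp5 (chr17:28399094-28517527, minus strand, GRCm38) encodes a co-chaperone that binds the receptor complex and lowers its affinity for hormone, which makes the gene a feedback brake. Fkbp5 CPM in the gastrocnemius were 35.5, 72.7, 107 and 151 in wild-type, 58.2, 66.7 and 85.7 in healthy and 317, 321 and 398 in sick libraries. Fkbp5 CPM in the quadriceps were 36.2, 92.8, 101 and 126 in wild-type, 49.03, 55.7, 71.99 and 363 in healthy and 221, 359 and 373 in sick libraries. Fkbp5 CPM in the tibialis were 34.8, 86.1, 94.7 and 153 in wild-type, 52.6, 59.5, 72.95 and 289 in healthy and 231, 315 and 441 in sick libraries. Every sick library lay above every wild-type library of its muscle, and the lowest wild-type level in each muscle belonged to replicate 1 (35.5, 36.2 and 34.8 CPM). Fkbp5 rose 4.19-fold (95% interval 2.18 to 8.03) in sick gastrocnemius, a log2 change of 2.07 ± 0.43 (adjusted p = 0.0137), and 3.90-fold (95% interval 1.59 to 9.57) in sick tibialis, 1.96 ± 0.60 (adjusted p = 0.0408). In the quadriceps the estimate was as large, 1.96 ± 0.67, and did not pass (adjusted p = 0.0621); it passed when healthy replicate 4, whose spread enters the same fit, was left out (1.93 ± 0.39 [adjusted p = 0.0148]), and in a fit of the 2 groups alone (adjusted p = 0.0321). The gastrocnemius call was lost without sick replicate 3 (adjusted p = 0.0517), and the tibialis call without any of wild type replicates 1, 2 and 3 and sick replicates 1 and 2 (adjusted p = 0.0782 to 0.143), without the low-count filter (0.118) and with a quality weight per library (0.0593).

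Tsc22d3 encodes the leucine zipper protein GILZ, which carries part of the anti-inflammatory action of the hormone. It was, with Glul, among the most abundant of the 10 genes per length, at 71.9 to 80.2 CPM per kilobase in the wild-type groups. Tsc22d3 CPM in the gastrocnemius were 236, 252, 314 and 446 in wild-type, 199, 358 and 383 in healthy and 447, 646 and 793 in sick libraries. Tsc22d3 CPM in the quadriceps were 303, 309.6, 311 and 470.1 in wild-type, 239, 326, 373 and 470.4 in healthy and 637, 695 and 851 in sick libraries. Tsc22d3 CPM in the tibialis were 243, 245, 349 and 458 in wild-type, 242, 335, 364 and 599 in healthy and 345, 569 and 856 in sick libraries. Sick libraries lay above wild type without overlap in the gastrocnemius and quadriceps, by a margin of 447 against 446 CPM between the closest gastrocnemius pair, and overlapped in the tibialis. Tsc22d3 rose 2.11-fold (95% interval 1.46 to 3.05) in sick quadriceps, a log2 change of 1.08 ± 0.24 (adjusted p = 0.0172). The estimates in the gastrocnemius, 0.99 ± 0.31, and the tibialis, 0.82 ± 0.36, did not pass (adjusted p = 0.0528 and 0.121). The quadriceps call was lost without any of wild type replicates 1 and 3 and sick replicates 2 and 3 (adjusted p = 0.0506 to 0.104), and the gastrocnemius estimate passed without either wild type replicate 4 or sick replicate 1 (adjusted p = 0.0291 to 0.0336), with limma-trend (0.0435) and with a quality weight per library (0.0232).

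Nfkbia encodes the inhibitor that holds NF-kappa-B in the cytoplasm; it is induced both by glucocorticoids and by NF-kappa-B itself. Nfkbia CPM in the gastrocnemius were 14.6, 17.2, 24.9 and 31.8 in wild-type, 18.4, 18.8 and 30.8 in healthy and 51.4, 51.96 and 64.99 in sick libraries. Nfkbia CPM in the quadriceps were 12.3, 14.99, 24.8 and 29.7 in wild-type, 17.9, 19.3, 24.2 and 39.9 in healthy and 57.5, 67.96 and 74.6 in sick libraries. Nfkbia CPM in the tibialis were 20.1, 22.7, 29.4 and 33.03 in wild-type, 24.2, 25.5, 31.9 and 53.7 in healthy and 57.2, 72.9 and 79.5 in sick libraries. The sick ranges lay above the wild-type ranges in all 3 muscles, and above the healthy ranges as well. Nfkbia rose 2.65-fold (95% interval 1.77 to 3.96) in the gastrocnemius, 3.67-fold (95% interval 2.31 to 5.85) in the quadriceps and 2.65-fold (95% interval 1.76 to 4.01) in the tibialis against wild type. The log2 changes were 1.40 ± 0.27, 1.88 ± 0.31 and 1.41 ± 0.27, with adjusted p-values of 0.00939, 0.0101 and 0.00936. The quadriceps call was lost without sick replicate 2 (adjusted p = 0.0550); the gastrocnemius and tibialis calls held in all 16 and 17 alternatives run.

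Sgk1 encodes a serum- and glucocorticoid-inducible kinase that regulates ion transport and cell survival. Sgk1 CPM in the gastrocnemius were 117, 134, 227 and 246 in wild-type, 122, 206 and 293 in healthy and 116, 201 and 268 in sick libraries. Sgk1 CPM in the quadriceps were 141, 155, 264 and 264 in wild-type, 156, 169.9, 175 and 325 in healthy and 148, 193 and 257 in sick libraries. Sgk1 CPM in the tibialis were 227, 239, 257 and 333 in wild-type, 210.4, 225, 315 and 465 in healthy and 215, 255 and 302 in sick libraries. Sick and wild-type libraries overlapped in each muscle, and the highest library of all was healthy tibialis replicate 4. The log2 differences between sick and wild type were 0.08 ± 0.37, -0.03 ± 0.32 and -0.03 ± 0.26, and none passed (adjusted p = 0.908, 0.953 and 0.939). Their 95% intervals, -0.74 to 0.90, -0.73 to 0.66 and -0.60 to 0.53, lie below the log2 estimate of Klf15 in each muscle.

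Klf15 (chr6:90462576-90475238, plus strand, GRCm38) encodes a Kruppel-like transcription factor that the receptor induces directly in muscle and that promotes the breakdown of branched-chain amino acids. Klf15 CPM in the gastrocnemius were 20.04, 27.3, 34.1 and 54.3 in wild-type, 19.5, 21.5 and 25.9 in healthy and 94.4, 152 and 230.2 in sick libraries. Klf15 CPM in the quadriceps were 18.5, 30.9, 41.2 and 63.9 in wild-type, 23.5, 26.9, 28.1 and 70.6 in healthy and 89.3, 153 and 278 in sick libraries. Klf15 CPM in the tibialis were 18.2, 29.6, 43.97 and 47.1 in wild-type, 19.6, 28.5, 29.5 and 83.1 in healthy and 88.1, 102 and 387 in sick libraries. The lowest sick library exceeded the highest wild-type and healthy ones in every muscle, and sick replicate 2 was the highest in each. Klf15 rose 4.66-fold (95% interval 2.72 to 7.98) in the gastrocnemius, 4.55-fold (95% interval 2.15 to 9.63) in the quadriceps and 4.56-fold (95% interval 1.94 to 10.7) in the tibialis. The log2 changes were 2.22 ± 0.35, 2.19 ± 0.49 and 2.19 ± 0.57 (adjusted p = 0.00541, 0.0178 and 0.0241). The gastrocnemius call held in all 16 alternatives run, at log2 changes from 1.93 to 2.54. The quadriceps call was lost without any of wild type replicate 1 and sick replicates 2 and 3 (adjusted p = 0.0501 to 0.106), and the tibialis call without any of wild type replicates 1 and 2 and sick replicate 2 (adjusted p = 0.0528 to 0.0947); without sick replicate 2 the log2 changes were 1.74 and 1.55. With no filter on low counts the tibialis change was 2.26 and did not pass (adjusted p = 0.0937).

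Klf9, a related Kruppel-like factor and a direct receptor target in many tissues, had smaller estimates than Klf15. Klf9 CPM in the gastrocnemius were 59.6, 123, 128 and 153 in wild-type, 115, 129.8 and 139.7 in healthy and 204, 230.4 and 277 in sick libraries. Klf9 CPM in the quadriceps were 119, 147, 152 and 152 in wild-type, 102, 110.2, 124 and 179 in healthy and 176, 188 and 315 in sick libraries. Klf9 CPM in the tibialis were 84.6, 112, 144 and 150.3 in wild-type, 104, 119, 137 and 179.6 in healthy and 209.8, 282 and 329 in sick libraries. Sick libraries lay above wild type without overlap in each muscle, with sick replicate 2 the highest. Klf9 rose 2.11-fold (95% interval 1.35 to 3.28) in the gastrocnemius and 2.25-fold (95% interval 1.54 to 3.31) in the tibialis, log2 changes of 1.07 ± 0.29 and 1.17 ± 0.25 (adjusted p = 0.0332 and 0.0140), and the quadriceps estimate of 0.62 ± 0.24 did not pass (adjusted p = 0.0820). The tibialis call held in all 17 alternatives run. The gastrocnemius call was lost without any of wild type replicate 2 and sick replicates 1, 2 and 3 (adjusted p = 0.0527 to 0.111), with total counts as the only scaling (0.0517) and in a fit of the 2 groups alone (0.0685).

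Zbtb16 encodes the zinc finger transcription factor PLZF and is strongly induced by glucocorticoids in many cell types. Zbtb16 CPM in the gastrocnemius were 22.6, 93.02, 103 and 108 in wild-type, 34.6, 68.3 and 108 in healthy and 162, 215 and 292 in sick libraries. Zbtb16 CPM in the quadriceps were 82.2, 94.9, 119 and 148 in wild-type, 53.5, 67.03, 71.4 and 218 in healthy and 97.9, 229 and 268 in sick libraries. Zbtb16 CPM in the tibialis were 46.6, 82.2, 111 and 116 in wild-type, 45.96, 58.6, 89.9 and 183 in healthy and 109, 173 and 336 in sick libraries. Sick gastrocnemius libraries lay above the wild-type ones, while in the quadriceps and tibialis sick replicate 4, at 97.9 and 109 CPM, fell within the wild-type range. The log2 estimates were 1.63 ± 0.58, 0.77 ± 0.49 and 1.14 ± 0.50 in the gastrocnemius, quadriceps and tibialis, and none passed (adjusted p = 0.0830, 0.275 and 0.123).

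Glul (chr1:153899944-153909723, plus strand, GRCm38) encodes glutamine synthetase, which makes the glutamine that muscle releases when it breaks down amino acids. It reached the highest level of the 10 genes, 1853 CPM in sick tibialis replicate 2. Glul CPM in the gastrocnemius were 213, 269, 278 and 541 in wild-type, 199.6, 201 and 229 in healthy and 1200.2, 1374 and 1581 in sick libraries. Glul CPM in the quadriceps were 304, 348, 552 and 605 in wild-type, 215, 238, 297 and 1459 in healthy and 1040.5, 1151 and 1679 in sick libraries. Glul CPM in the tibialis were 121, 131, 302 and 331 in wild-type, 126, 189, 237 and 926 in healthy and 747, 1347 and 1853 in sick libraries. Sick libraries lay above all wild-type libraries of the same muscle, and healthy replicate 4 lay among the sick ones in the quadriceps and tibialis. Glul rose 4.40-fold (95% interval 2.77 to 6.997) in sick gastrocnemius and 6.18-fold (95% interval 2.40 to 15.9) in sick tibialis, log2 changes of 2.14 ± 0.31 and 2.63 ± 0.63 (adjusted p = 0.00361 and 0.0189). The quadriceps estimate of 1.54 ± 0.62 did not pass (adjusted p = 0.1003), and passed when healthy replicate 4 was left out of the fit (1.50 ± 0.27 [adjusted p = 0.0102]). The gastrocnemius call held in all 16 alternatives run, and the tibialis call was lost without wild type replicate 2 or sick replicate 2 (adjusted p = 0.0557 to 0.0774) and without the low-count filter (0.0623). The start of Glul overlaps Teddm2 on the opposite strand, which had 3450 counts in all against 350448 for Glul.

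The 250 bases upstream of the annotated start sites (RefSeq, GRCm38.p6) were searched on both strands for the palindromic glucocorticoid response element, which is AGAACA, 3 bases of any kind and TGTTCT, and for a single arm of it, AGAACA. Entries existed for 8 of the genes, with 15 start sites among them. The full element was found in 3 of 32851 windows genome-wide (0.00913%), and Sgk1 held it upstream of a start site at chr10:21993640-21993889, 189 bases before the start. Single arms, which the full element also contains, occurred in 16.1% of all windows, and among the 8 genes in 3 windows of Sgk1 and 1 of Tsc22d3 (chrX:140600523-140600772, minus strand, 185 bases before the start). A search for the NF-kappa-B consensus, added after the values were seen, found it in 7.25% of all windows, among them that of Nfkbia (chr12:55492648-55492897, minus strand), 29 bases before the start. Klf15, which rose in all 3 muscles, held none of the 3 in its window (chr6:90462326-90462575), which says only that these letters are not in these bases. The 4 windows are shown 5′ to 3′ on the strand of the gene, with the matched letters in capitals.
Sgk1: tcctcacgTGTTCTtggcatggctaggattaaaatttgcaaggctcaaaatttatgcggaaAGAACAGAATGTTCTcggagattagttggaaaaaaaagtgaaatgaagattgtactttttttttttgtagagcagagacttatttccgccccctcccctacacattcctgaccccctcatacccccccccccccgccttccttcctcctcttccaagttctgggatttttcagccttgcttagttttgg
Tsc22d3: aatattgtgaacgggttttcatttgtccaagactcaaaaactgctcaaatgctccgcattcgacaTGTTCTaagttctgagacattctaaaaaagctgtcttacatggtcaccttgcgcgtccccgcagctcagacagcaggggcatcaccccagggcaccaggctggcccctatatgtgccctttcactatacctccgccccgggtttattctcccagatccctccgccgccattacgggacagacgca
Nfkbia: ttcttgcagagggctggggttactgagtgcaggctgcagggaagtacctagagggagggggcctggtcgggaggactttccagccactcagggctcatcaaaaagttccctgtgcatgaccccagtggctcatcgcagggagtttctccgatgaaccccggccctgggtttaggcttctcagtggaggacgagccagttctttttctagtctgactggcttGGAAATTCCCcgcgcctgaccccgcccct
Klf15: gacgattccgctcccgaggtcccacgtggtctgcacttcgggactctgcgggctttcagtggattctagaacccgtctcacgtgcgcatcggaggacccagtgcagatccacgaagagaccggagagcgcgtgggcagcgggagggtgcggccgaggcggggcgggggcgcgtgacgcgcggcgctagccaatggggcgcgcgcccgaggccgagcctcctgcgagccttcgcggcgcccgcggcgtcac
The window with the full element belongs to Sgk1, which did not pass in any comparison of states, and that of Klf15 carries no match. A match is a description of the letters, and binding was not measured.

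Set against healthy knock-in muscle, which carries the same mutation, sick muscle gave a like picture: 4 of the 10 genes were higher in the gastrocnemius (14.1% of all genes tested were called, 7.17% as higher), 4 in the quadriceps (17.6% and 10.1%) and 4 in the tibialis (11.3% and 5.03%), and 0 were lower. These comparisons share their sick libraries with those against wild type, so the 2 sets of values are not independent. In the gastrocnemius, Glul rose 6.59-fold (95% interval 4.10 to 10.6), 2.72 ± 0.31 (adjusted p = 0.00130), Klf15 6.72-fold (95% interval 3.76 to 11.99), 2.75 ± 0.38 (adjusted p = 0.00263), and Fkbp5 5.02-fold (95% interval 2.56 to 9.86), 2.33 ± 0.44 (adjusted p = 0.00881). These 3 calls held in all 15 alternatives run. Nfkbia rose by 1.35 ± 0.29 (adjusted p = 0.0135), a call lost without healthy replicate 1 or sick replicate 2 (adjusted p = 0.0526 to 0.0539). Tsc22d3, at 1.03 ± 0.32 (adjusted p = 0.0556), passed without sick replicate 1 (1.25, adjusted p = 0.0347).

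In the quadriceps, Klf15 (2.25 ± 0.50), Nfkbia (1.48 ± 0.32), Tsc22d3 (1.08 ± 0.24) and Klf9 (0.79 ± 0.23) rose against healthy muscle, with adjusted p-values of 0.0172, 0.0147, 0.0157 and 0.0384. Without healthy replicate 4, 7 of the 10 genes passed: Glul reached 2.31 ± 0.27 [adjusted p = 0.00278], Fkbp5 2.39 ± 0.42 [adjusted p = 0.0110] and Zbtb16 1.49 ± 0.34 [adjusted p = 0.0223], against 1.67, 1.75 and 1.07 with it (adjusted p = 0.0779, 0.0895 and 0.140). All 4 calls were lost without sick replicate 2 (adjusted p = 0.0831 to 0.206). Klf15 was also lost without healthy or sick replicate 3, Tsc22d3 without sick replicate 3, and Klf9 without any of healthy replicates 1 to 3 or sick replicate 3 (adjusted p = 0.0505 to 0.0946). Zbtb16 passed without sick replicate 4 (1.51, adjusted p = 0.0447). A fit of the 2 groups alone left Klf15 and Nfkbia past the threshold, and Klf15 missed it without the low-count filter (adjusted p = 0.0572).

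In the tibialis, Glul (2.20 ± 0.63), Klf15 (2.11 ± 0.56), Nfkbia (1.10 ± 0.27) and Klf9 (1.02 ± 0.26) rose against healthy muscle, with adjusted p-values of 0.0444, 0.0380, 0.0301 and 0.0310. Leaving out healthy replicate 4 raised the estimate of Glul to 2.79 ± 0.46 [adjusted p = 0.0179] and that of Klf15 to 2.54 ± 0.51 [adjusted p = 0.0290], and brought Fkbp5 past the threshold (2.36 ± 0.44 [adjusted p = 0.0237], against 1.81 with it). Each of the 4 calls was lost when any of healthy replicates 1, 2 and 3 or sick replicates 1 and 2 was left out (adjusted p = 0.0557 to 0.156), and that of Nfkbia also without sick replicate 4 (adjusted p = 0.0518). With total counts as the only scaling, or in a fit of the 2 groups alone, 0 of the 10 genes passed, and with no filter on low counts 2 did. Hsd11b1 passed, as lower, without sick replicate 2 (-1.23, adjusted p = 0.0380) and with a quality weight per library (-1.12, adjusted p = 0.0217).

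With all libraries, healthy knock-in muscle was not told apart from wild type in any of the 10 genes. In each muscle 0 passed at an adjusted p (limma-voom) or at an unadjusted p under 0.05, and 0 with limma-trend. Over all genes tested, 1 passed in the gastrocnemius (0.00706%), 5 in the quadriceps (0.0362%) and 72 in the tibialis (0.496%), and 1083, 637 and 716 had an unadjusted p under 0.05. In the tibialis 70 of the 72 were lower, and the part of the kidney tubule markers of the wild-type tibialis libraries was not tested. The intervals of the 10 genes leave room for sizeable differences. For Klf15 the 95% interval of the log2 difference ran from -1.28 to 0.23 in the gastrocnemius, from -1.10 to 0.97 in the quadriceps and from -1.04 to 1.20 in the tibialis. Glul was at -0.58 ± 0.28 in the gastrocnemius (adjusted p = 0.651), -0.13 ± 0.55 in the quadriceps and 0.42 ± 0.55 in the tibialis. Several of these values changed size or direction without healthy replicate 4. Zbtb16 in the quadriceps was then at -0.75 ± 0.32, and the count at an unadjusted p was made only with all libraries. Glul then stood at -0.81 ± 0.25 [adjusted p = 0.935] in the quadriceps and -0.16 ± 0.40 [adjusted p = 1] in the tibialis. Fkbp5 went from 0.21 to -0.46 ± 0.38 [adjusted p = 1] in the quadriceps and from 0.15 to -0.40 ± 0.39 [adjusted p = 1] in the tibialis. Klf15 was then at -0.39 ± 0.46 [adjusted p = 1] and -0.35 ± 0.46 [adjusted p = 1] in the same muscles. In the gastrocnemius, Glul was at -0.26 without wild-type replicate 4 (adjusted p = 0.587), and Fkbp5 at -0.66 ± 0.25 without wild-type replicate 1 (adjusted p = 0.706). In the quadriceps Nr3c1 stood at 85.7 to 98.6 CPM in healthy against 103 to 114 in wild-type libraries, without overlap, a difference of -0.20 ± 0.13 (adjusted p = 0.999). It was the 1 of the 10 genes with such a gap there, where ranges lay apart for 3.86% of all genes; in the gastrocnemius (9.12% of all genes) and tibialis (4.03%) there were 0.

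The healthy knock-in libraries numbered 4 had levels unlike those of the other healthy libraries. The quadriceps library exceeded the other 3 healthy quadriceps libraries in 10 of the 10 genes, all wild-type libraries in 9, and fell within the sick range in 5. The tibialis library exceeded the other 3 in 9, all wild-type libraries in 8, and fell within the sick range in 5. Fkbp5 stood at 363 CPM in the quadriceps against 49.0 to 72.0 in the other 3, and at 289 in the tibialis against 52.6 to 73.0. Glul stood at 1459 against 215 to 297 CPM and at 926 against 126 to 237 CPM. Klf15, at 70.6 and 83.1 CPM, lay above every wild-type library and below every sick one. The shares of all genes above all wild-type libraries, or within the sick range, were not computed for these 2 libraries. Whether the counts of 9, 8 and 5 are unusual can therefore not be judged. Adipocyte markers summed to 3257 CPM in the quadriceps library against 214 to 366 in the other 3, and to 462 in the tibialis library against 217 to 402. The part of this in the levels of the 10 genes, and of the further genes described next, was not tested.

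Of 20 other glucocorticoid-responsive genes, 18 were higher in healthy quadriceps replicate 4 than in the other 3 healthy libraries, and 15 in the tibialis, with a median ratio to their mean of 2.38 and 2.39. Over all genes tested, 27.3% and 24.1% were above the other 3. Of the genes that rose in sick against wild-type muscle, in a fit without this library, 41.5% in the quadriceps and 29.3% in the tibialis were above the other 3 healthy libraries; of the genes that fell, 49% and 27.5% were below them, against 31.4% and 24.4% of all genes. The label of these libraries is healthy, no gastrocnemius library of that number was analysed here, and no label tells whether the quadriceps and tibialis libraries came from the same mouse. Same-numbered healthy libraries of these muscles deviated from their group means together (r 0.38 to 0.472 in all 4 pairs, against a median of -0.166 for other pairs), so the 2 libraries may not be independent observations. Wild-type replicate 4 was also the highest of its group for 7, 5 and 7 of the 10 genes in the gastrocnemius, quadriceps and tibialis, and the lowest for 0. The share of all genes highest in wild-type replicate 4 was not computed.

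**Figure D3:**
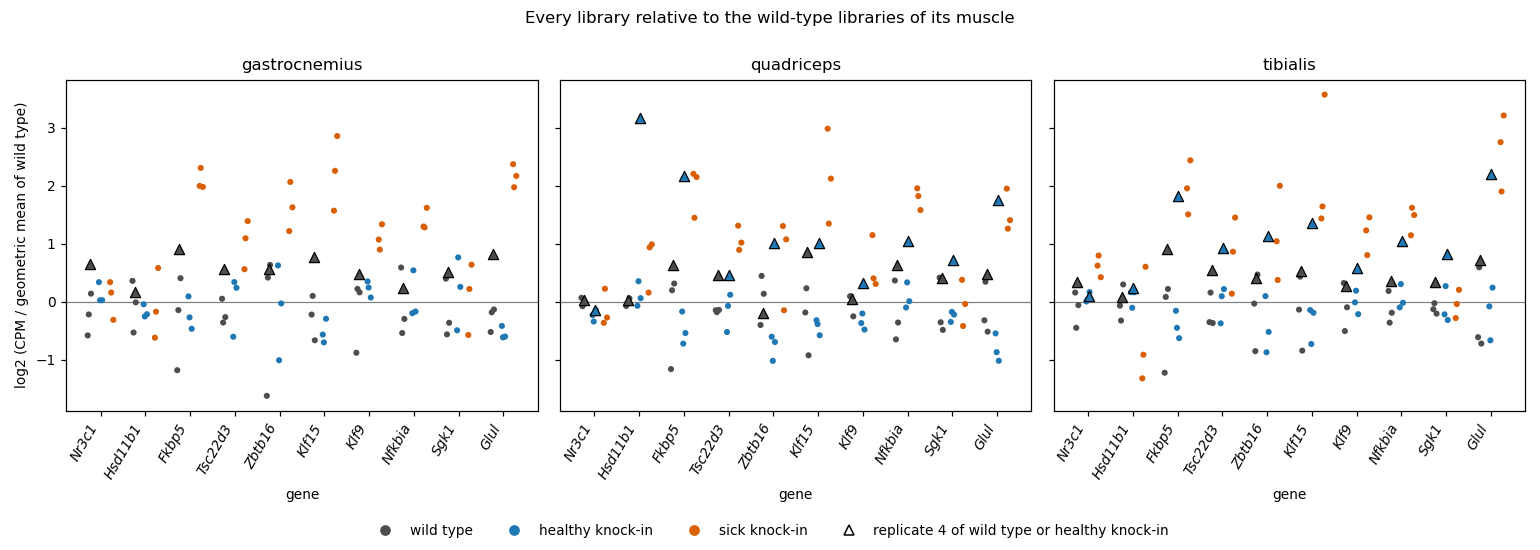
Each library relative to the geometric mean of the wild-type libraries of its muscle (log2, y axis) for each gene (x axis); triangles mark replicate 4 of wild type or healthy knock-in, circles all other libraries, and colours the state. The healthy triangles of Fkbp5 and Glul lie among the sick circles in the quadriceps and tibialis.

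Among wild-type muscles, 0 of the 10 genes differed between any pair at an adjusted p under 0.05 (limma-voom), where 1.07% of 14708 genes tested differed between quadriceps and gastrocnemius, 2.58% between tibialis and gastrocnemius and 5.67% between tibialis and quadriceps. At an unadjusted p under 0.05 there were 1 (Hsd11b1), 0 and 2 (Nr3c1 and Glul), and with a quality weight per library 3 passed between tibialis and quadriceps (Nr3c1 at -0.48, Hsd11b1 at 0.47 and Glul at -1.45). Glul was lower in the tibialis (221 ± 111 CPM, SD, n = 4) than in the quadriceps (452 ± 149), a log2 difference of -1.12 ± 0.39 (adjusted p = 0.107). This main fit did not use the pairing of same-numbered wild-type libraries, seen in the data for quadriceps with gastrocnemius and with tibialis. With the replicate number as a block the Glul difference was -1.11 and passed (adjusted p = 0.00903), and no other of the 10 genes passed between wild-type muscles. The wild-type tibialis libraries also held kidney tubule markers, whose part in the shares of all genes was not tested. Per length, the wild-type groups ranked Glul (66.6 to 136 CPM per kilobase) and Tsc22d3 first, then Sgk1 (36.9 to 53.9), Klf9 (24.0 to 29.6) and Zbtb16 (15.5 to 21.0), with Nfkbia (12.7 to 16.3), Nr3c1 (9.89 to 14.1), Klf15 (12.2 to 13.8) and Fkbp5 (9.38 to 9.72) close together and Hsd11b1 last.

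Whether the sick change itself differed between muscles was tested in a model of all 32 libraries. The main fit did not use the pairing of same-numbered libraries seen in the data. Between quadriceps and gastrocnemius, 0 of 15229 genes (0%) passed and 173 had an unadjusted p under 0.05. Between tibialis and gastrocnemius 31 passed (0.204%), 30 of them with a lower sick change in the tibialis. Between tibialis and quadriceps 37 passed (0.243%), all with a lower sick change in the tibialis. Both comparisons hold the wild-type tibialis libraries with kidney tubule markers, whose part in these calls was not tested. None of the 10 genes was among the genes that passed, also with limma-trend, and at an unadjusted p under 0.05 there was 1, Nr3c1. Its sick change was 0.76 ± 0.30 larger in the tibialis than in the quadriceps (95% interval 0.15 to 1.37, adjusted p = 0.585). With a quality weight per library it passed at 0.84, as did Hsd11b1 at -1.86. With state and replicate number as a block (limma-voom), 0 of the 10 genes passed in each comparison, and this Nr3c1 difference was 0.68 ± 0.25 (adjusted p = 0.236). The 5 genes called in the tibialis but not in the quadriceps, or the reverse, are therefore not shown to differ between these muscles.

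Other genes of the pathway were grouped by function, in lists chosen with earlier results of these data known. The receptor's chaperones and co-chaperones, 8 genes including heat shock protein 90, had 0 members past the threshold in any muscle of sick against wild-type mice (limma-voom; 1, 2 and 4 at an unadjusted p under 0.05; median log2 change -0.01, -0.02 and -0.19). Of 8 co-regulators, 1 rose in the gastrocnemius, 1 in the quadriceps and 4 in the tibialis. Over all genes tested, 8.22%, 10.5% and 8.44% were called higher in the same order, so the counts of 1 are near that share. Crebbp, an acetyltransferase that receptors recruit to chromatin, rose in all 3 muscles, by 0.71 ± 0.18, 0.56 ± 0.15 and 0.88 ± 0.21, and in the tibialis its relative Ep300 (0.99 ± 0.25) and the coactivators Ncoa1 (0.75 ± 0.23) and Ncoa2 (0.82 ± 0.21) rose with it. Of the genes of hormone metabolism and the mineralocorticoid receptor, 0 of 3 tested passed in the gastrocnemius (1 at an unadjusted p under 0.05), 0 of 2 in the quadriceps (0) and 1 of 2 in the tibialis, H6pd, which supplies the reducing power for the Hsd11b1 enzyme (1.19 ± 0.36, adjusted p = 0.0388).

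Among 20 further genes known to respond to glucocorticoids, 13 were higher in sick than in wild-type gastrocnemius, 12 in the quadriceps and 12 in the tibialis, and 0 were lower. Of all genes tested, 8.22%, 10.5% and 8.44% were called higher in the same order. Since earlier results of these data were known when the list was chosen, the counts describe the list and are not separate support. The median log2 changes of the 20 genes were 1.80, 1.84 and 1.98. In healthy against wild-type muscle 0 of the 20 passed in each muscle, with medians of -0.16, 0.16 and 0.15; without healthy replicate 4 the quadriceps and tibialis medians were -0.02 and -0.15, with 0 and 0 past the threshold. Of these 20, 7 rose in all 3 muscles, 16 in at least 1, and 4 in none. Cebpd, a transcription factor of the acute response, had a wild-type level of 4.43 to 58.6 CPM and a sick level of 80.5 to 272 CPM in the gastrocnemius, and rose by 3.72 ± 0.76 there, 4.12 ± 0.68 in the quadriceps and 3.68 ± 0.85 in the tibialis. Mt2, a metallothionein that binds zinc, rose by 3.41 ± 0.58 in the gastrocnemius and 4.51 ± 0.93 in the quadriceps. Ddit4, an inhibitor of the growth kinase mTOR, rose by 4.34 ± 1.06 in the quadriceps and 3.23 ± 0.93 in the tibialis. Among those that passed, the smallest changes were those of Cebpb (1.14 ± 0.29) and Foxo3 (1.64 ± 0.27) in the gastrocnemius, Pik3r1 (1.28 ± 0.22) in the quadriceps and Lpin1 (0.84 ± 0.22) in the tibialis. Beside Cebpd, the genes that rose in all 3 muscles were Pik3r1, Foxo1, Foxo3, Trim63, Cdkn1a and Arrdc2, and the 4 that passed in none were Dusp1, Pdk4, Angptl4 and Txnip; all but Pik3r1 and Foxo3 are named here after their values were seen. Several of these genes also respond to fasting and other stresses.

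**Figure D4:**
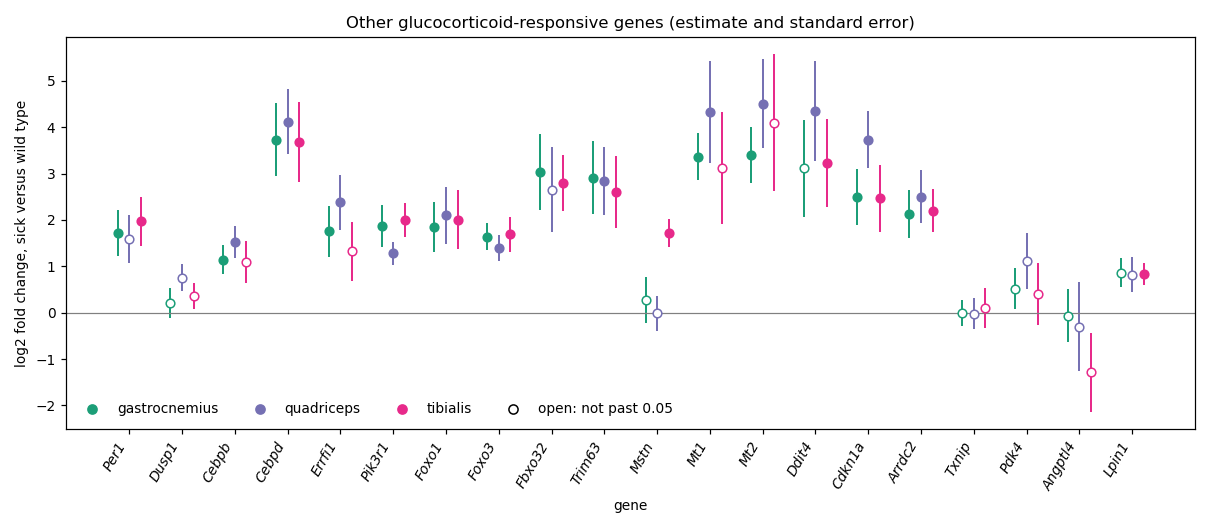
Log2 fold change between sick and wild-type muscle for the 20 further glucocorticoid-responsive genes (x axis), with bars of 1 SE and a colour per muscle; filled points passed an adjusted p of 0.05. Cebpd is filled in all 3 muscles with changes of 3.68 to 4.12, and Dusp1, Pdk4, Angptl4 and Txnip are open in each.

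Of 3 amino acid catabolism genes downstream of Klf15, 2 rose in the gastrocnemius, 1 in the quadriceps and 2 in the tibialis. The shares called higher over all genes tested were 8.22%, 10.5% and 8.44%, and a list of 3 is too short to set against them. Prodh, the first enzyme of proline breakdown, rose in all 3 muscles, by 1.97 ± 0.19, 1.75 ± 0.40 and 1.69 ± 0.31 (adjusted p = 0.000971, 0.0180 and 0.00790). Bcat2, which removes the amino group of branched-chain amino acids in mitochondria, rose in the gastrocnemius by 0.91 ± 0.23 and in the tibialis by 0.95 ± 0.27. Gpt, an alanine aminotransferase, fell in the tibialis by 0.94 ± 0.25 and did not pass elsewhere.

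Beside Nfkbia, most of the 10 NF-kappa-B factors and inhibitors did not pass. Most genes tested did not pass either: 14.7%, 18% and 18.1% were called in sick against wild-type gastrocnemius, quadriceps and tibialis. In the gastrocnemius 0 passed (3 at an unadjusted p under 0.05). In the quadriceps 3 rose, the inhibitor Nfkbib (0.71 ± 0.22) and the subunits Rela (0.57 ± 0.17) and Nfkb1 (0.45 ± 0.11). The inhibitor Nfkbie fell in the tibialis by 1.16 ± 0.36. Of 8 inflammatory genes that glucocorticoids repress, 3, 3 and 4 were abundant enough to test in the gastrocnemius, quadriceps and tibialis, and 0 passed (0, 1 and 1 at an unadjusted p under 0.05). Among 12 relatives of the 10 genes, 11 were tested, 0 rose, and 1 fell in each muscle, Tsc22d4, by 0.89 ± 0.25, 0.74 ± 0.22 and 0.71 ± 0.23, opposite in sign to Tsc22d3.

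Some markers of other cells also differed between states. The same test called 14.7%, 18% and 18.1% of all genes in sick against wild-type gastrocnemius, quadriceps and tibialis. Of 6 markers of fibro-adipogenic progenitors, 3, 1 and 3 fell in sick against wild-type gastrocnemius, quadriceps and tibialis, with summed levels of 678 to 1362 CPM against 1858 to 6203 in the gastrocnemius, 1239.9 to 1834 against 1779 to 5831 in the quadriceps and 325 to 668 against 1376 to 3780 in the tibialis. Erythrocyte markers were higher in sick gastrocnemius (4 of 6, summed 169 to 303 CPM against 78.9 to 162). Their sums overlapped in the quadriceps (72.1 to 468 against 51.0 to 99.6 CPM) and tibialis (28.7 to 203 against 67.4 to 220 CPM). Macrophage markers were higher in sick quadriceps (3 of 7, 263 to 381 CPM against 146 to 217). Summed macrophage markers of healthy quadriceps, 222 to 298 CPM, also lay above wild type. Sick and wild-type macrophage sums overlapped in the gastrocnemius (93.9 to 246 against 102 to 172 CPM) and tibialis (40.3 to 182 against 73.4 to 189 CPM). Of 4 satellite cell markers, Cdh15 rose in each muscle and Pax7 fell in the gastrocnemius and quadriceps, with summed levels in sick and wild-type muscle of 37.5 to 47.9 against 21.0 to 28.7 CPM in the gastrocnemius, 27.7 to 46.0 against 24.8 to 29.2 in the quadriceps and 27.5 to 38.2 against 18.0 to 27.2 in the tibialis. Fibre markers overlapped in all 3 muscles. Summed endothelial markers were lower in sick than in wild-type quadriceps (264 to 305 against 308 to 370 CPM) and overlapped in the other muscles. Summed Schwann cell markers were lower in sick than in wild-type tibialis (38.5 to 64.1 against 77.2 to 192 CPM) and overlapped in the other muscles. The part of these shifts in the changes of the 10 genes was not tested.

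Across the 9 group means of log2 CPM, the genes most like Klf15 were Foxo1, Fam214a and Sesn1 (Pearson r 0.998, 0.997 and 0.997 over 9 groups, out of 15228 genes). Tsc22d3 was most like Trim63 (0.993), Nfkbia most like Arrdc2 (0.996), Fkbp5 most like Ctdp1 (0.996), Klf9 most like Ubr2 (0.996), Glul most like Syne3 (0.993) and Zbtb16 most like Dtx2 (0.987). Lower likeness was reached by Nr3c1 with Ttn (0.954), Sgk1 with Tbl3 (0.943) and Hsd11b1 with Hap1 (0.929). These are descriptions over 9 points that share libraries and the sick state.

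The authors' deposited table, fitted separately by them, called 6, 4 and 5 of the 10 genes in sick against wild-type gastrocnemius, quadriceps and tibialis, all higher, and 0 in healthy against wild type. In the authors' deposited table Tsc22d3 passed in the gastrocnemius (1.02, adjusted p = 0.0220) and Fkbp5 in the quadriceps (1.84, adjusted p = 0.0315), which did not pass here. Nr3c1 in the tibialis, which passed here, was at 0.58, adjusted p = 0.0507 in the authors' deposited table. The other calls against wild type were shared, 5 in the gastrocnemius, 3 in the quadriceps and 5 in the tibialis. In sick against healthy muscle the authors' deposited table called 7, 4 and 3 of the 10 genes, of which 4, 4 and 3 also passed here. Klf9, Tsc22d3 and Zbtb16 in the gastrocnemius passed in the authors' deposited table alone, and Glul in the tibialis passed here alone.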

How the data were processed

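Total RNA from 32 mouse muscle libraries was sequenced, and the authors deposited 1 table with raw counts per gene, size-factor normalised values, log2 fold changes and adjusted p-values. Per the submitters' processing notes, cutadapt 1.18, TopHat2 2.1.1, HTSeq 0.6.0 and DESeq2 1.22.1 were used with GRCm38; their roles, the annotation release and the strand setting are not stated there. Of 54838 genes, 6252 carry no value in the deposited table and were left out, so limma-voom was used on the raw counts of the other 48586. The normalised columns equal the raw counts divided by 1 factor per library and were not tested.

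From these counts, genes that reached 10 counts, scaled to the median library, in at least the number of libraries of the smallest group, and 15 in all, were kept for tests with limma 3.58.1 in R 4.3.3; totals were scaled by trimmed means (trims 0.3 and 0.05), 0.5 was added before the log2, and robust moderated tests were adjusted by Benjamini-Hochberg over all genes tested at a threshold of 0.05. The 3 states of a muscle shared a fit; wild-type muscles were compared over 12 libraries, and the change between muscles over all 32. Intervals are at 95%. Total counts of 7685164 to 42588233 limit the precision of low genes. The method was run on simulated data with large changes planted in the more abundant genes and the same spread set for every gene. Those data held no outlying library, so the run does not speak for calls that rest on single libraries. Alternatives changed the scaling, filter, value added, method, weights, block and libraries.

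The text names the 10 genes, from each pathway list and muscle the 2 highest and 2 lowest changes among those that passed, and the genes most like each of the 10 over 9 group means. The 10 genes and the lists were chosen with earlier results of these data known. Whether replicate numbers pair libraries was read from the correlation of deviations from group means. Between states of a muscle, same-numbered libraries correlated at -0.174 to 0.257 and are not paired. Between wild-type quadriceps and gastrocnemius (0.267 to 0.534) and tibialis and quadriceps (0.215 to 0.451) all 4 pairs exceeded 0.1, a pairing that comes from the data and not from the labels; tibialis and gastrocnemius (0.02 to 0.549) did not meet this. Healthy libraries of the same number also exceeded 0.1 between all muscles (0.215 to 0.493), but no comparison was made between healthy muscles. Sick libraries of the same number, 2 pairs for each pair of muscles, correlated at 0.286 to 0.564. They enter the test of the change between muscles, whose main fit did not use this pairing.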

Additional observations from a re-analysis of the deposited data

Results flagged for a closer look

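In 50 groups of 4 libraries, formed by 1 of the 10 genes in 1 muscle and state, 11 had a highest or lowest library far outside the spread of the others; chance gives about 1 in 20 groups when each is taken alone, and since these groups share libraries and genes that vary together, that share does not apply to the count of 11. Of the 11, 9 came from the 2 healthy knock-in libraries numbered 4. The quadriceps library stood far above the other 3 healthy libraries for Klf15 (70.6 CPM), Fkbp5 (363), Zbtb16 (218), Sgk1 (325), Hsd11b1 (53.0) and Glul (1459). The tibialis library stood far above them for Klf15 (83.1 CPM), Fkbp5 (289) and Glul (926). Wild-type quadriceps replicate 2 was far below its group for Klf9 (119 CPM), and wild-type quadriceps replicate 4 far above its group for Tsc22d3 (470.1 CPM).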

How the results depend on the processing

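Of the 10 genes, the number past the threshold ran from 3 to 6 in sick against wild-type gastrocnemius, 0 to 5 in the quadriceps and 2 to 6 in the tibialis when 1 library at a time was left out; against healthy muscle it ran from 3 to 5, 0 to 7 and 0 to 5, and it was 0 throughout for healthy against wild type, wild-type muscles and changes between muscles. Against wild type, the count was 5 in the quadriceps with a quality weight per library, with only the 2 groups or without healthy replicate 4 (the last chosen after seeing the data), and 3 in the tibialis with no filter on low counts. Against healthy muscle, it was 7 in the gastrocnemius with all 32 libraries or quality weights, 7 (quality weights) and 2 (only 2 groups) in the quadriceps, and 0 (total counts; only 2 groups) and 2 (no filter) in the tibialis. Quality weights gave 3 between wild-type tibialis and quadriceps and 2 for the change between these muscles. With the replicate block, the count was 2 in sick against wild-type tibialis, and 2 and 1 against healthy quadriceps and tibialis, whose libraries share only a number; between wild-type tibialis and quadriceps it was 1 (Glul), and the block changed no other call between wild-type muscles. No result changed direction among the called genes. The cause of these shifts was not tested. The median of all genes moved by up to 0.25 in sick against wild-type quadriceps with no filter on low counts. For the change between muscles it moved further without that filter. It went from -0.01 to -0.36 between tibialis and quadriceps and from -0.01 to -0.28 between tibialis and gastrocnemius. Groups of 3 or 4 libraries limit what can be called: the 95% intervals of sick changes span several-fold for Klf15, Fkbp5 and Glul.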
